A study of Mus musculus with 35 samples.

Results

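Chemokines and chemokine receptors were followed in 35 single cells labelled as primary peritoneal macrophages of mice. The members are all genes whose symbol is Ccl, Cxcl, Ccr or Cxcr followed by a number, together with Cx3cl1, Cx3cr1 and Ccrl2. They numbered 51 of the 46545 gene symbols listed over the 3 deposited count tables. By role they are 19 CC ligands, 5 CXC ligands with the Glu-Leu-Arg (ELR) motif, 8 other CXC ligands, Cx3cl1, 10 CC receptors, 6 CXC receptors, Cx3cr1 and Ccrl2. The rule does not take in chemokines with other names, such as Pf4, Ppbp and Xcl1, nor the atypical receptors of the Ackr series. At least 1 count was found for 31 of the 51 members.

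Chemokines are small secreted proteins that steer leukocytes along concentration gradients, and most of their receptors signal through inhibitory G proteins. CC and CXC chemokines are named after the spacing of their first cysteines, and the CXC ligands with an ELR motif act on Cxcr2 and draw neutrophils. In the peritoneal cavity, macrophages are a source of neutrophil-attracting chemokines during inflammation, and Cxcl13 made there is known for guiding B cells of the body cavities through Cxcr5.

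All cells came from male C57BL/6 mice aged 6 months, and treatment meant 72 h in 10 mM lactate. In the scMeT-seq method, a capillary with an opening of 300 nm draws off cytoplasm for a metabolome before the remaining cell is lysed for the transcriptome, while whole cells were lysed at once for SMART-seq2. The first table holds 8 control cells and 8 lactate-treated cells after scMeT-seq. The second holds 4 lactate-treated scMeT-seq cells, 3 lactate-treated whole cells and 2 control whole cells. The third holds 5 cells treated with lactate and 5 treated with lactate and 300 nM AZD3965, an inhibitor of the lactate carrier MCT1. The labels and the paper's methods do not say which animal or culture a cell came from, so each of the 7 groups counts as 1 sample. No test was therefore run over cells, no difference has a replicate check, and ranges over cells are descriptions.

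Counts assigned to genes totalled 269393 to 459859 per cell in the lactate table, 494520 to 851417 in the technique table and 58444 to 175450 in the AZD3965 table. A list of 18 macrophage markers gave 29687 to 125370 CPM (counts scaled to the library's total) in 34 of the 35 cells. The library labelled control CTL32 stood apart. It held 1240 CPM of macrophage markers and 53439 CPM of 14 fibroblast markers, with a count for 13 of the 14 fibroblast markers, and Adgre1, Csf1r, Cd68, Mertk and Fcgr1 were at 0. In control CTL30, lactate-treated Lactic29 and lactate+AZD cell W14 the fibroblast and mesothelial markers together came to 28.8, 20.0 and 71.5% of the macrophage markers. Results that rest on these 4 cells are given with and without them.

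The most direct view of the members is their count in each cell. Of the 50 members in both matrices, 27 had a count in the lactate table and 22 in the technique table, and 20 of 51 had one in the AZD3965 table. A single cell showed between 6 members, in T11, and 19, in Lactic29. Ligands took up most of the counts. Summed over the group they came to 2724 CPM in control and 3385 CPM in lactate-treated cells, against 367 and 323 CPM for receptors.

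**Figure D1:**
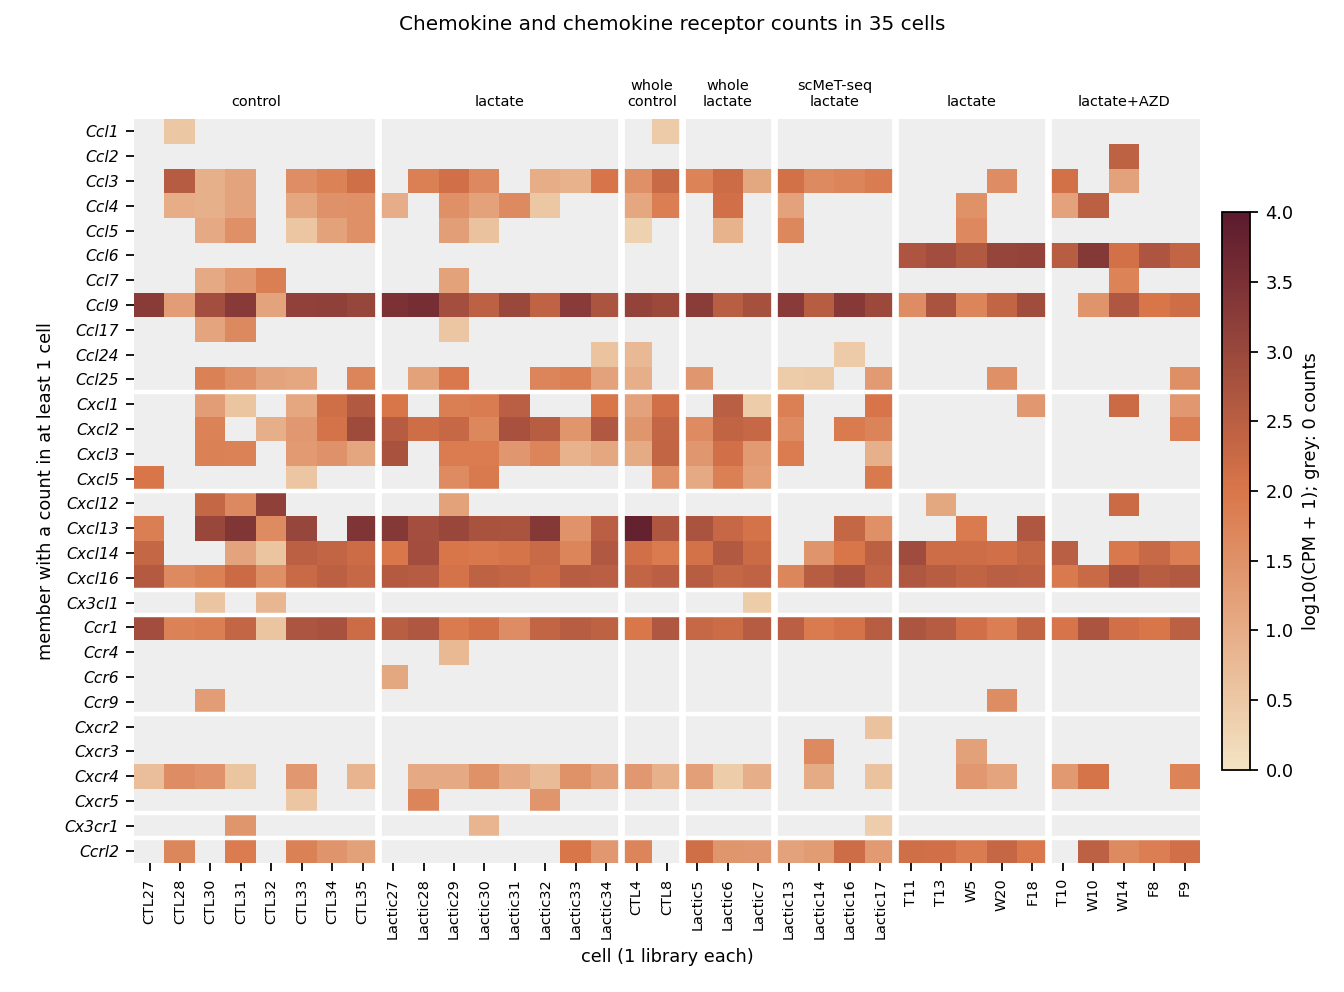
Each square is the level of a member (row) in a cell (column) as log10(CPM + 1), for 30 of the 31 members with a count, with cells ordered by group and members by role. Cxcl16 and Ccr1 have a count in every cell, Ccl9 in every cell but T10, Ccl6 only in the 10 cells of the AZD3965 table, and most receptors in few cells or none.

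Among the ligands that the naming rule takes in, a pair supplied most counts of the lactate table. Ccl9, a CC ligand of Ccr1, and Cxcl13 together held 69.1% of these ligand counts in control and 69.8% in lactate-treated cells. Pf4, outside the rule, had 9007 control and 9067 lactate counts, more than the 5537 and 7177 of this pair. Ccl6 is listed at 0 in this table. The shares and ranks given here are therefore those of the members read in it. Ccl9 or Cxcl13 was the leading ligand in 6 of 8 control cells and in 8 of 8 lactate-treated cells. The exceptions were CTL28, led by Ccl3, and CTL32, in which Cxcl12 supplied 88.6% of the ligand counts. Per kilobase of exon, Cxcl13 ranked first and Ccl9 second in both groups, at 777 and 325 CPM per kilobase in control cells and 825 and 464 in lactate-treated cells.

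The first comparison asks which members differ between lactate-treated and control macrophages. A member was called when its summed CPM differed at least 2-fold and the exact 95% binomial interval of the ratio stayed on that side of 0, among genes whose counts in the groups together reached 10. These intervals cover counting error only, not the spread between cells or animals. The libraries carry no molecular identifiers and copies made by PCR are counted singly, so the intervals may be too narrow even for counting error. Of 21 members with 10 counts, 4 were called higher and 4 lower, while the calls over all genes came to 14.1% higher and 20.9% lower. The median log2 ratio was -0.08 over the 21 members and -0.09 over all 11505 genes. Without CTL32, 2 members were called higher (Cxcl3 and Cxcr5) and 6 lower (Ccl3, Ccl5, Ccl17, Cxcl12, Ccrl2 and Cx3cr1). No share over all genes is given for that set of cells, so these counts are descriptions.

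Cxcl2 and Cxcl3, the ELR ligands called higher, lie with Cxcl1 in a cluster on chromosome 5. The 3 genes are close relatives, and how the authors' counting divides reads between such copies is not given in the sources used here. In GRCm38 coordinates, Cxcl3 lies at chr5:90786103-90789600, Cxcl1 at chr5:90891241-90893115 and Cxcl2 at chr5:90903871-90905938, all on the + strand. The 120 bases upstream of their RefSeq starts (GRCm38.p6) are shown because all carry the same 10-letter NF-kB type motif, GGGAATTTCC, in capitals.
Cxcl3, chr5:90785981-90786100, + strand: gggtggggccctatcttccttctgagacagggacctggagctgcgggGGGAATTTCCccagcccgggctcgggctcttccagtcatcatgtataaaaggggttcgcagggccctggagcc
Cxcl1, chr5:90891125-90891244, + strand: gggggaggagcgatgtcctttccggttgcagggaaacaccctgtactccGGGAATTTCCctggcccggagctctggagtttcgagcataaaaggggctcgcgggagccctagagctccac
Cxcl2, chr5:90903779-90903898, + strand: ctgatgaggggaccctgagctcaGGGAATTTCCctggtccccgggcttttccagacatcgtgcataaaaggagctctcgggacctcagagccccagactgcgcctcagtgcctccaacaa
The motif begins 73 bases before the RefSeq start of Cxcl3, 71 before that of Cxcl1 and 97 before that of Cxcl2. The gene coordinates above are those of GENCODE, whose starts differ from these. The bases shown for Cxcl1 and Cxcl2 reach past the GENCODE starts. On either strand it occurs in 29 of 32851 promoter windows of RefSeq (0.0883%), each reaching from 250 bases before to 50 after a start. Among the 36 members with such a window, the other match was in Ccr3, on the opposite strand. The motif was chosen after these promoters had been read, and a match is a description of the sequence, not evidence of binding.

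Cxcl2, a neutrophil attractant, was found in 8 of 8 lactate-treated cells and in 5 of 8 control cells. Lactate-treated cells ranged from 25.6 to 619 CPM with a median of 262, and control cells from 0 to 863 CPM with a median of 15.6. Of the 8 control values 7 thus lie below the lactate median, but CTL35 lies above every lactate-treated cell and holds 78.9% of the control counts. The summed levels of 255 and 121 CPM gave a log2 ratio of 1.08 (0.89 to 1.26, the 95% interval), and 3.15 without CTL35. It was 0.90, under the limit for a call, without CTL32, and the call was lost in 10 of the 16 omissions of a single cell. Drawn down to 269393 counts in every cell, the expected number of cells with a count stays at 8.0 and 4.98.

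Cxcl3 gave the larger ratio of the ELR ligands. It reached 98.0 CPM in lactate-treated and 23.1 CPM in control cells, a log2 ratio of 2.08 (1.70 to 2.49). Lactate-treated cells ranged from 0 to 566 CPM with a median of 38.2, and control cells from 0 to 60.7 CPM with a median of 16.5. The highest value, in Lactic27, makes up 67.8% of the lactate counts, and without that cell the log2 ratio was 0.63 and the call was lost. Cxcl1 was at 69.7 and 64.9 CPM, and its log2 ratio of 0.10 (-0.19 to 0.39) became 1.60 without CTL35, which holds 68.6% of its control counts. Cxcl5 was seen in 2 cells of each group and had no call, at 14.5 against 9.52 CPM.

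Cxcl1, Cxcl2 and Cxcl3 all had a count in 4 control cells and in 5 lactate-treated cells. Of the 13 cells with Cxcl2, 9 had Cxcl1 and 11 had Cxcl3, and 1 further cell had Cxcl1 or Cxcl3 without Cxcl2. Cxcl5 did not follow them in CTL27, where it was at 100.2 CPM with the other 3 at 0. CTL27, CTL28 and CTL31 are the control cells without a count of Cxcl2. CTL27 was the highest cell of that group for Ccr1 and Cxcl16. It also had the fewest genes with a count of that group, 3392 against a median of 7517.5. The part of this in its zeros was not tested.

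Among the other CXC ligands, Cxcl14, whose receptor is not settled, was also called higher. It had a count in 8 of 8 lactate-treated cells (51.2 to 722 CPM, median 107) and in 6 of 8 control cells (0 to 286 CPM, median 86.8). The groups overlap over most of their range. The summed CPM of 225 against 107 gave a log2 ratio of 1.07 (0.87 to 1.27). It was 0.46 without Lactic28, 0.88 without CTL32 and 0.98 from the mean of cell CPM, each under the limit, and the call was lost in 6 of the 16 omissions of a single cell.

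Cxcl16, a chemokine made as a membrane protein that also takes up oxidised lipoprotein, was the most even ligand of the table. All 16 cells had a count, with 118 to 387 CPM and a median of 288 in lactate-treated cells and 33.2 to 379 CPM and a median of 172 in control cells. The summed ratio was 0.79 on the log2 scale (0.62 to 0.96), less than 2-fold, and lay between 0.61 and 1.01 when any 1 cell was left out, past the limit only without CTL27. CTL28, CTL30 and CTL32 are the low control cells. Cxcl13 differed little in sum, at 948 against 894 CPM (log2 0.09, 0.01 to 0.16), and its log2 ratio was -0.10 without CTL32. It varied widely within the groups. Control cells ranged from 0 in CTL28 and CTL34 to 2553 CPM in CTL35, and lactate-treated cells from 27.9 CPM in Lactic33 to 2107 CPM in Lactic32.

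Cxcl12, the ligand of Cxcr4 and a product of stromal cells, gave the widest ratio and rests on the cells with fibroblast transcripts. It had 620 control counts, with 1445 CPM in CTL32, 207 CPM in CTL30, 43.9 CPM in CTL31 and 0 in the other 5 cells. The lactate-treated group had 6 counts, all in Lactic29. The log2 ratio was -6.74 (-8.19 to -5.61), and -4.27 without CTL32. Without CTL30, CTL32 and Lactic29, 16 counts remained in 1 of 6 control cells and 0 in 7 lactate-treated cells. Ccl7, a ligand of Ccr2, was likewise read in CTL32 at 69.2 CPM, CTL31 at 22.0 CPM, CTL30 at 10.1 CPM and Lactic29 at 14.7 CPM, with 0 elsewhere. Its log2 ratio of -2.67 (-4.21 to -1.41) was -1.24 without CTL32, with 6 against 12 counts, and was then no call.

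The CC ligands with a call were all lower in lactate-treated cells, and each had few counts. Ccl5, a ligand of Ccr1 and a T cell attractant, gave 8 against 32 counts, in 2 and 5 cells of 8, for a log2 ratio of -2.05 (-3.38 to -0.90). It stayed called lower when any 1 cell was left out, with log2 ratios from -4.84 to -1.56. Ccl17, a ligand of Ccr4, gave 1 against 21 counts, and 16 of the 21 are in CTL31, without which the call was lost. In CTL31 the fibroblast markers came to 1560.1 CPM, or 2.14% of the macrophage markers, beside 893 CPM of small peritoneal macrophage markers, whose part in these values was not tested. Lactic33 and Lactic27 held 896 and 622 CPM of the small peritoneal macrophage markers without a count of Ccl5 or Ccl17. Ccl9 had no call but the most counts of any member. It came to 1413 CPM in lactate-treated and 988 CPM in control cells, a log2 ratio of 0.52 (0.45 to 0.58), whereas the median cell was lower with lactate, at 852 against 1206 CPM. The low control cells were CTL28 at 17.8 CPM and CTL32 at 13.8 CPM, and the high lactate-treated cells were Lactic27 at 2916 CPM and Lactic28 at 3580.4 CPM.

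Ccl3 and Ccl4 are inflammatory ligands made by activated macrophages. Ccl3 was at 45.1 CPM with lactate and 85.3 CPM in control cells, in 6 of 8 cells each, with a log2 ratio of -0.92 (-1.23 to -0.61). The median cells were at 26.6 and 25.2 CPM, and the difference in sum rests on CTL28 at 360.2 CPM, without which the log2 ratio was 0.34. Leaving out CTL30, CTL32 and Lactic29 moved it to -1.83, past the limit. Ccl4 was at 11.2 and 12.6 CPM, log2 -0.17 (-0.88 to 0.54). Of the cells with Ccl3 or Ccl4, both were found together in 6 of 6 control cells but in 3 of 8 lactate-treated cells. Ccl25, a ligand of Ccr9, was at 31.6 and 21.4 CPM in 5 of 8 cells each.

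**Figure D2:**
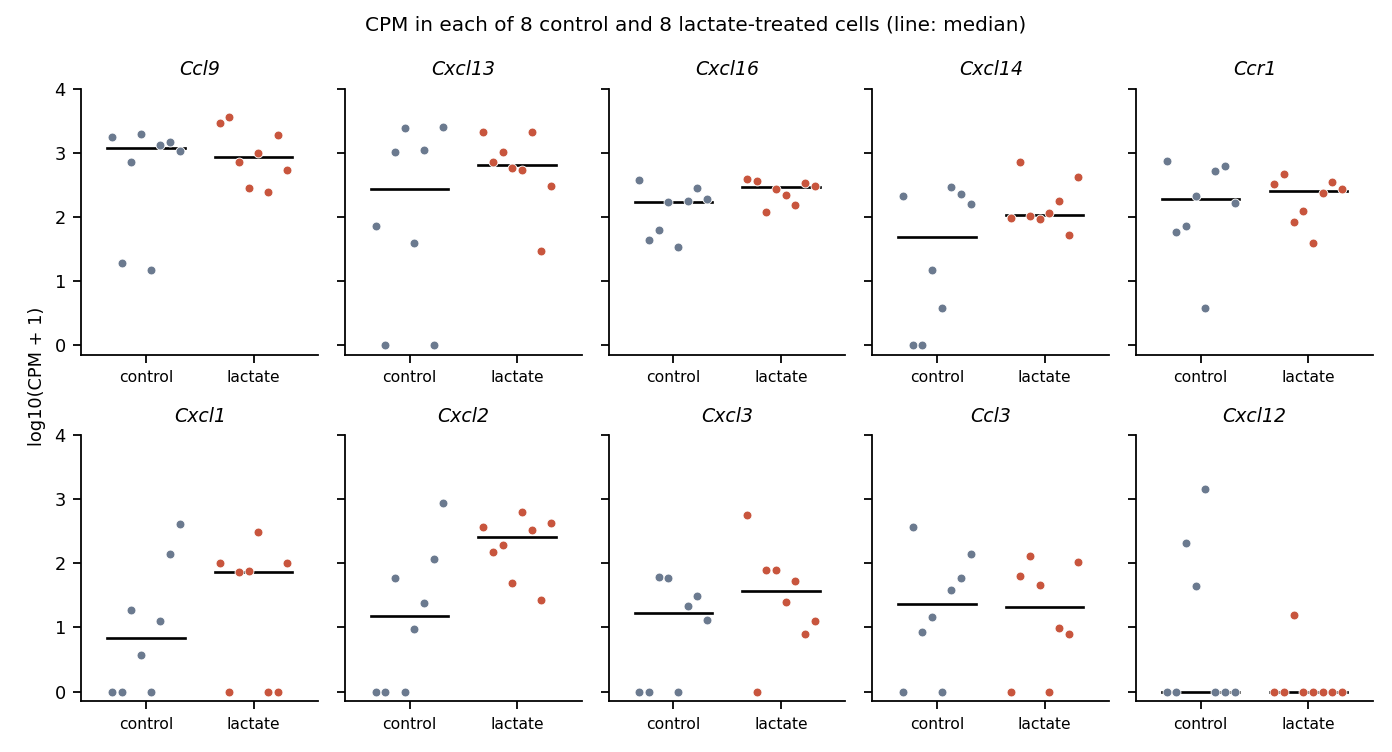
Points are single cells as log10(CPM + 1) for 10 members in the 8 control and 8 lactate-treated cells, and the line is the median. Cxcl2 lies above 0 in every lactate-treated cell, with 3 control cells at 0 and CTL35 highest at 863 CPM; Cxcl12 has 1 lactate-treated cell above 0.

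Receptors were few. Ccr1, the receptor of Ccl9, Ccl3 and Ccl5, was present in all 16 cells, from 38.1 to 469 CPM (median 250) with lactate and from 2.77 to 731 CPM (median 189) without. The log2 ratio was -0.18 (-0.33 to -0.04), and -0.37 without CTL32, the lowest cell. Cxcr4, the receptor of Cxcl12, had 41 and 42 counts and no call. Cxcr5, the receptor of Cxcl13, had 33 counts in Lactic28 and Lactic32 against 1 count in CTL33, a log2 ratio of 5.00 (2.42 to 10.34), which counts as a call resting on 2 cells. Ccrl2, an atypical receptor that binds chemerin without signalling like the others, was found in 2 lactate-treated and 5 control cells, at 16.8 against 30.6 CPM (log2 -0.87, -1.39 to -0.36), and passed the limit at -1.06 without CTL32. Cxcr2, on which the ELR ligands act, and Cxcr6, the receptor of Cxcl16, were listed at 0 in all 16 cells. For Cxcr2, which was read in the technique table, this allows up to 1.02 CPM in control and 0.987 CPM in lactate-treated cells (3 counts over the group), while Cxcr6 was at 0 in both matrices and no limit is given for it.

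The same treatment can be set side by side in whole cells, where 3 lactate-treated and 2 control cells were lysed without sampling. Of 15 members with 10 counts, 2 were called higher and 3 lower, with 14.1 and 26.4% of all 9732 genes called in those directions. The median log2 ratio was 0.04 for members and -0.20 for all genes, and TMM scaling added 0.19 to every ratio. Cxcl13 showed the widest difference. It was at 6743 CPM in CTL4 and 469 CPM in CTL8, against 544, 193 and 118 CPM in Lactic5, Lactic6 and Lactic7. CTL4 is far above the rest and CTL8 lies within the lactate range, so the log2 ratio of -4.00 (-4.14 to -3.87) became -0.82 without CTL4.

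The receptor Cxcr4 was called lower on 14 against 24 counts, a call that was lost without CTL4, Lactic6 or Lactic7 and under TMM scaling. Cxcl14 was at 119, 406 and 170 CPM with lactate and at 128 and 82.0 CPM without, so the groups overlap. Its log2 ratio of 1.12 (0.85 to 1.40) was 0.43 without Lactic6, and the call was lost without Lactic6 or CTL8. Cxcl5 was at 10.1, 65.3 and 15.7 CPM against 0 and 32.1 CPM (log2 1.31, 0.52 to 2.16), and at -0.024 without CTL4, the call being lost without CTL4 or Lactic6.

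The ELR ligands did not separate the whole cells. Cxcl2 was at 38.4, 243 and 190 CPM with lactate and at 24.7 and 219 CPM without (log2 0.70, 0.41 to 1.00), and Cxcl3 at 24.3, 134 and 20.5 CPM against 9.40 and 232 CPM (log2 -0.67, -1.05 to -0.30). Cxcl1 was at 0, 312 and 1.57 CPM against 14.1 and 136 CPM. In each group 1 cell was the highest for all of them, Lactic6 and CTL8, while for Cxcl2 Lactic7 was high as well, at 190 CPM. Without CTL8 the log2 ratios of Cxcl1, Cxcl2 and Cxcl3 were 2.97, 2.75 and 2.71, and without Lactic6 those of Cxcl1 and Cxcl3 were -6.14 and -2.14. Cxcl16 and Ccr1 were level in sum, with log2 ratios of 0.04 (-0.16 to 0.24) and 0.03 (-0.18 to 0.24). Ccr1 was uneven within the control pair, at 92.8 CPM in CTL4 and 456 CPM in CTL8, and its log2 ratio was 1.38 without CTL8. Ccl9 was at 1751, 325 and 626 CPM against 1264 and 915 CPM (log2 -0.42, -0.53 to -0.32), and at -1.23 without Lactic5. Ccl3 was at 56.6, 157 and 11.01 CPM against 32.9 and 171 CPM (log2 -0.22, -0.59 to 0.14), with Lactic6 and CTL8 again the high cells. Ccrl2 was at 142, 24.5 and 23.6 CPM against 52.9 and 0 CPM (log2 0.85, 0.33 to 1.39), and passed the limit at 1.03 under TMM scaling.

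A further comparison asks whether drawing off cytoplasm before lysis changes what is read of the members. It sets 4 scMeT-seq cells against the same 3 lactate-treated whole cells, so both comparisons of this table share those cells. Of 17 members with 10 counts, 2 were called higher and 7 lower after scMeT-seq, with 20.3 and 19.7% of all 9723 genes called in those directions. The median log2 ratio was -0.19 for members and 0.02 for all genes.

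For 4 of the members read in all 7 cells the interval reached across 0. Ccr1 was at 219 CPM after scMeT-seq and 242 CPM in whole cells, log2 -0.15 (-0.33 to 0.04). Cxcl16 was at 295 and 263 CPM, log2 0.17 (-0.01 to 0.34). Ccl3 was at 75.4 and 75.2 CPM, log2 0.00 (-0.33 to 0.34). Ccrl2 was found in all 7 cells, at 50.4 and 57.4 CPM, log2 -0.19 (-0.58 to 0.21). The sums of Ccl3 and Ccrl2 hang on single cells, since the log2 ratio of Ccl3 was 1.28 without Lactic6 and that of Ccrl2 1.07 without Lactic5 and -1.67 without Lactic16. Ccl9 was higher after scMeT-seq by less than 2-fold (1312 against 839 CPM, log2 0.64, 0.55 to 0.73), and at 1.46 was past the limit without Lactic5. Its single values ran from 329 CPM in Lactic14 to 2031 CPM in Lactic16 after scMeT-seq and from 325 CPM in Lactic6 to 1751 CPM in Lactic5 in whole cells.

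The lower calls were Ccl4, Cxcl1, Cxcl2, Cxcl3, Cxcl13, Cxcl14 and Cxcr4. Cxcl2 was at 39.2, 0, 81.1 and 54.5 CPM in Lactic13, Lactic14, Lactic16 and Lactic17, against 38.4, 243 and 190 CPM in the whole cells. Lactic5 therefore lies among the scMeT-seq cells. The log2 ratio was -1.87 (-2.20 to -1.55) and kept its call when any 1 cell was left out. The calls of Cxcl1 (log2 -1.26, -1.61 to -0.92) and Cxcl3 (-1.45, -1.94 to -0.96) rest on Lactic6, which held 312 and 134 CPM. Without it the log2 ratios were 5.70 and 0.027, and the call of Cxcl1 was also lost without Lactic14 or Lactic16. Ccl4 had a count in Lactic6 at 132 CPM and in Lactic13 at 14.1 CPM and in no other of the 7 cells.

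Cxcl13 was at 0, 0, 210.1 and 30.9 CPM after scMeT-seq and at 544, 193 and 118 CPM in whole cells (log2 -2.13, -2.40 to -1.86), and kept its call whichever cell was left out. The 8 lactate-treated scMeT-seq cells of the lactate table held 948 CPM of Cxcl13 and 255 CPM of Cxcl2. These sums lie above the 265 and 166 CPM of the whole cells, whereas the 4 scMeT-seq cells here held 60.7 and 45.5 CPM. Scatter between sets of cells could thus not be told apart from the sampling. Cxcl14 was at 0, 26.9, 101 and 293 CPM against 119, 406 and 170 CPM (log2 -1.09, -1.31 to -0.86), with no call without Lactic13, Lactic14 or Lactic6. Cxcr4 was called lower on 7 against 14 counts, and the call was lost in 5 of the 7 omissions of a cell. The higher calls are each 1 cell. All 30 scMeT-seq counts of Ccl5 are in Lactic13 and all 22 of Cxcr3, the receptor of interferon-induced CXC ligands, in Lactic14. Cxcr3 had no count in whole cells. With the floor of 3 counts in place of 0 it was 5.24-fold higher in the sum, and its interval began at a log2 ratio of 1.97.

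The last comparison asks what blocking MCT1 adds to lactate. In the AZD3965 table the value 2 occurs 6215 times and the value 1 occurs 1914 times, unlike counts of independent single events. The counting intervals there may be too narrow for this reason as well. Of 14 members with 10 counts, 6 were called higher and 3 lower with AZD3965, while 21.7 and 12.5% of all 8764 genes were called in those directions. The median log2 ratio was 0.36 for members and 0.17 for all genes, and TMM scaling moved every ratio by -0.16.

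Ccl6, a CC ligand of Ccr1 that lies beside Ccl9 on chromosome 11, led the ligands here and was read in all 10 cells. It was at 496, 729.55, 1259, 397 and 1141 CPM in the lactate cells T11, T13, F18, W5 and W20, and at 333, 496, 221, 2069.5 and 127 CPM in the lactate+AZD cells T10, F8, F9, W10 and W14. W10 is above all lactate cells and the other 4 lactate+AZD cells are in their lower range or below it. The sum was 729 against 776 CPM, log2 -0.09 (-0.27 to 0.10), and -1.55 without W10. Ccl6 supplied 42.6 and 45.3% of the ligand counts and was the leading ligand in 4 of 5 and 3 of 5 cells.

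Cxcl16, Ccr1 and Ccrl2 were spread across both groups. Cxcl16 was at 452, 336, 276, 239.8 and 315 CPM in T11, T13, F18, W5 and W20, and at 85.0, 342, 398, 180.25 and 608 CPM in T10, F8, F9, W10 and W14 (log2 -0.09, -0.38 to 0.19). Ccr1 ranged from 67.9 to 515 CPM without and from 103 to 527 CPM with AZD3965 (log2 -0.11, -0.43 to 0.21). Ccrl2 had a count in 5 and 4 of 5 cells, at 133 and 108 CPM in sum, log2 -0.30 (-0.78 to 0.18), and -1.39, past the limit, without W10.

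The lower calls were Ccl9, Cxcl13 and Cxcl14. Ccl9 was at 37.7, 559, 773, 52.5 and 228 CPM in T11, T13, F18, W5 and W20, and at 0, 103, 144, 26.7 and 453 CPM in T10, F8, F9, W10 and W14. The groups overlap, and the highest lactate+AZD value is that of W14. The log2 ratio was -1.02 (-1.39 to -0.65), -2.53 without W14 and -0.56 without T13. The call was lost without T13, F18, T10, W10 or F8. Cxcl14 was at 829, 148, 209.9, 149.9 and 129.5 CPM against 312, 188, 66.4, 0 and 91.9 CPM in the same order of cells. Its log2 ratio of -1.25 (-1.65 to -0.86) was -0.27 without T11 and was no call without T11 or W10. Cxcl13 had 53 counts in F18 and W5 and none with AZD3965. With the floor of 3 counts in place of 0 it was 14.25-fold lower in the sum. Its interval ended at a log2 ratio of -3.48. F18 held 42 of the 53 counts, and without it the log2 ratio with that floor moved from -3.83 to -1.76.

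The higher calls each have most of their counts in 1 or a few cells. All 37 counts of Ccl2, the main ligand of Ccr2, all 24 counts of Cxcl12 and 24 of the 26 counts of Cxcl1 were in W14, at 262, 169.7 and 169.7 CPM. W14 also held 19199 CPM of fibroblast and 2023 CPM of mesothelial markers, with a count for 10 of 14 and 5 of 10 of them, and 29687 CPM of macrophage markers, the lowest value of that table. Without W14, Ccl2 and Cxcl12 had no count with AZD3965 and Cxcl1 had 2. Ccl4 was at 287 CPM in W10 and 14.2 CPM in T10, against 30.0 CPM in W5 alone (log2 3.80, 2.35 to 5.74), and Ccl3 at 127 CPM in T10 and 14.1 CPM in W14, against 37.0 CPM in W20 alone (log2 2.05, 0.68 to 3.65). Without W10 the log2 ratio of Ccl4 was -0.26, and without T10 that of Ccl3 was -0.87. Cxcr4 was at 107 CPM in W10, 55.3 CPM in F9 and 21.2 CPM in T10, against 22.5 CPM in W5 and 12.3 CPM in W20 (log2 2.57, 1.15 to 4.32), and its call was lost without W10. W10 was also the highest of the 10 cells for 5 small peritoneal macrophage markers (H2-Ab1, H2-Aa, H2-Eb1, Cd74 and Mrc1), at 848 CPM. It was highest for dendritic cell markers too, at 387 CPM. It was the only cell above 100 CPM of B cell markers, at 247 CPM, with Ms4a1 and Pax5 at 0. Its large peritoneal macrophage markers (Gata6, Timd4 and Icam2) were at 0, as were those of the lactate cell T13. The part of these markers in the results was not tested.

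The names of these 10 cells start with T, W or F, each letter being found in both groups, and the sources used here do not say what the letters stand for. Within the letters Cxcl14 was lower with AZD3965 in all 3, with log2 ratios of -0.60 in T, -1.64 in W and -0.88 in F. Ccl9 was lower in T, where it had no count with AZD3965, and in F (-2.60), but was at 0.65 in W. Ccr1 was at -2.02 in T, 1.78 in W and -0.11 in F, with opposite directions in T and W. Of the members called higher, Ccl2, Ccl4, Cxcl1 and Cxcl12 had more than 3 counts in a group only in W, where they were higher, and Ccl3 was higher in T but at -1.56 in W. Cxcr4 was at 1.70 in W, with 3 counts in T and 5 in F from lactate+AZD cells alone. Cxcl13 had no count in T and counts from lactate cells alone in W and F. Each letter holds 1 or 2 cells a group, so these are values of single cells.

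**Figure D3:**
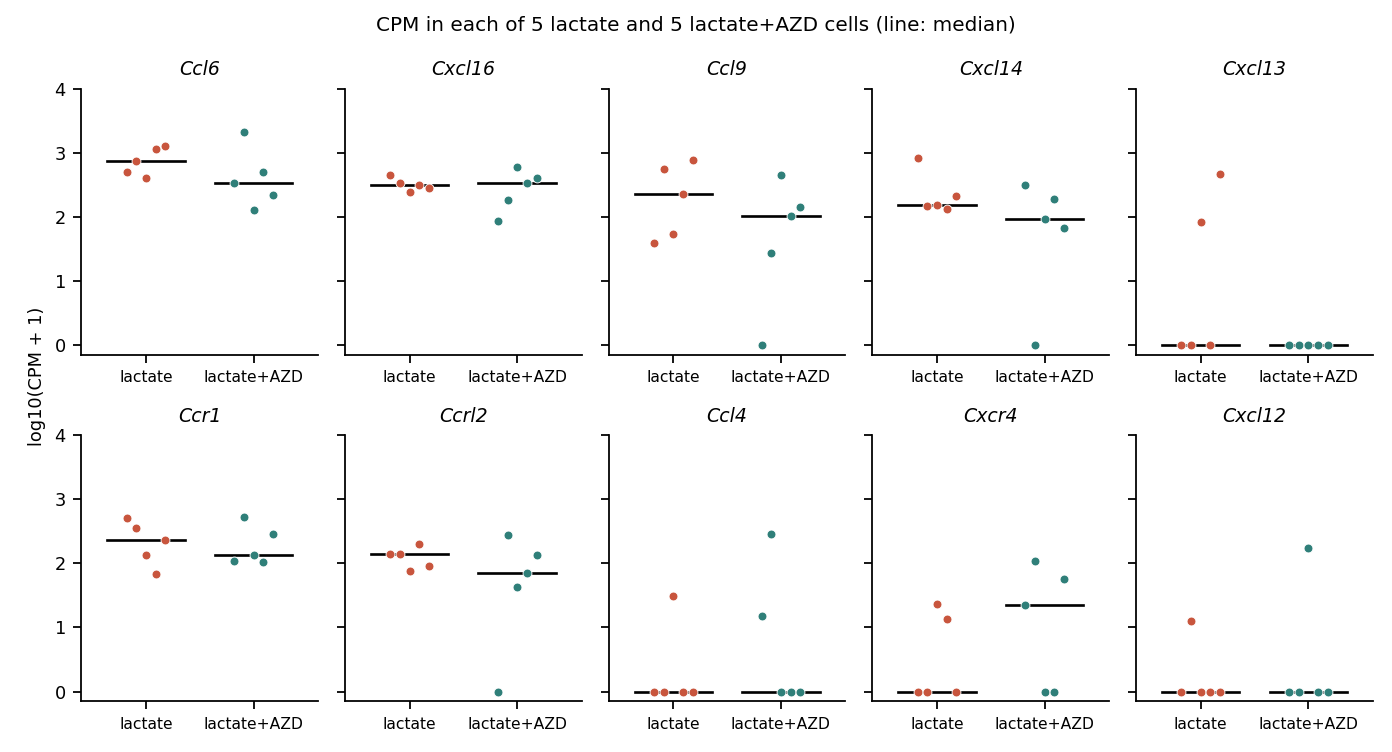
Points are single cells as log10(CPM + 1) for 10 members in 5 lactate and 5 lactate+AZD cells, and the line is the median. Ccl6 lies above 0 in all 10 cells and overlaps between the groups, Cxcl13 is above 0 in 2 lactate cells, and the high Cxcl12 point is W14 at 169.72 CPM.

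**Figure D4:**
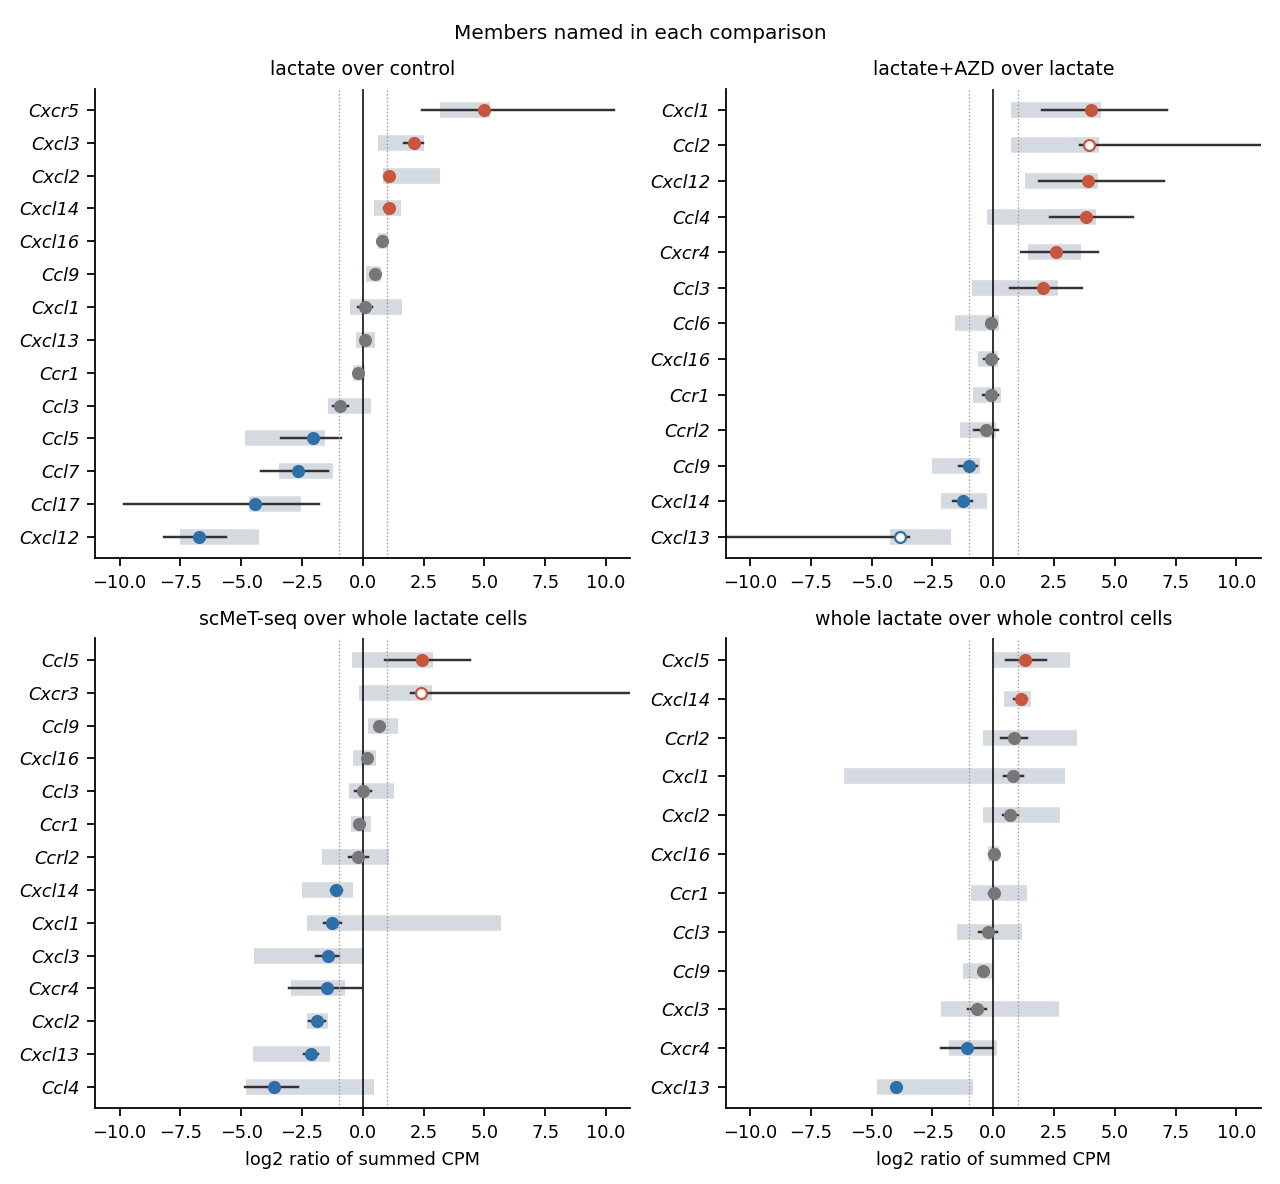
Points are log2 ratios of summed CPM for members named in each comparison, dark lines the 95% counting intervals, and pale bars the range of the ratio when each cell is left out in turn. Red and blue mark calls, open points are bounds against a sum of 0, and dotted lines mark the 2-fold limit; the pale bar of Cxcl1 crosses 0 in both panels with whole cells.

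The zeros of the deposited tables are a result of their own. Of the members, 21 were at 0 in all 25 cells of both matrices. Among them Ccl6 had 983 counts over 10 of 10 cells of the AZD3965 table, and Ccl2 had 37 counts in W14. The other 19 were at 0 in all 3 tables. They are Ccl8, Ccl11, Ccl12, Ccl19, Ccl20, Ccl22, Ccl26, Ccl28, Cxcl15, Cxcl9, Cxcl10, Cxcl17, Ccr2, Ccr3, Ccr7, Ccr8, Ccr10, Cxcr1 and Cxcr6. Cxcl11 was listed in the AZD3965 table alone, at 0.

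A zero in the matrices is therefore not a measured absence for every gene. B2m, a subunit of MHC class I that nucleated cells express, had 205 to 492 counts in the 10 cells of the AZD3965 table and 0 in all 25 cells of the matrices. Of 1255 symbols shared by the tables and read in all 10 of those cells, 28 (2.23%) were at 0 in both matrices, and Ccl6 is 1 of them. Ccl6 is thus listed at 0 in the lactate and technique tables, and no level is given for it there.

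Beyond the members, 39 other genes of chemokine signalling were listed: atypical receptors, other ligands, G protein subunits, arrestins, receptor kinases, regulators of G protein signalling and effectors. With 10 counts or more, 31 were compared between lactate-treated and control cells, and 5 were called higher and 4 lower, with a median log2 ratio of 0.09 and with 14.1 and 20.9% of all genes called in those directions. In the AZD3965, technique and whole-cell comparisons 29 each were compared, with 2, 2 and 4 called higher and 2, 3 and 5 lower. Over all genes 21.7, 20.3 and 14.1% were called higher and 12.5, 19.7 and 26.4% lower. Rgs1, which dampens signalling of G protein-coupled receptors, had 213 counts in 7 of 8 lactate-treated cells and 61 counts in 1 of 8 control cells (log2 1.76, 1.34 to 2.19). It had 300 counts in 4 of 5 lactate+AZD cells and 108 in 2 of 5 lactate cells (log2 1.78, 1.46 to 2.12). Pf4, a CXC chemokine outside the naming rule, had 45 counts in 4 of 5 lactate+AZD cells and 473 in 3 of 5 lactate cells, 231 of them in F18 (log2 -3.08, -3.56 to -2.64). Ackr3, a scavenger of Cxcl12, had 50 of its 51 control counts in CTL32 and 0 counts in lactate-treated cells.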

How the data were processed

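The 35 libraries are single cells, and groups were taken from the labels. As the methods state, the authors used fastp for trimming, HISAT2 for alignment to mm10 and StringTie for assignment to genes. They deposited whole-number counts per gene without normalization, as 2 matrices with gene IDs and 1 table with symbols only.

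Counts were divided by the total of each cell or group to give CPM, in Python 3.11.15 (scipy 1.17.1, pandas 2.3.3, numpy 2.4.6). Gene IDs that share a symbol were summed. Log2 ratios of summed counts carry exact conditional binomial 95% intervals. The intervals were tested on counts simulated under the Poisson model they assume, which hold no PCR copies and no spread between cells. Their coverage in these data was therefore not tested. Where a group had no count, 3 counts stood in as the floor. TMM factors came from edgeR 4.0.16 in R 4.3.3, and figures from matplotlib 3.10.9. Coordinates and exon lengths are from GENCODE M21 (GRCm38), and promoters from RefSeq (GRCm38.p6), with 36 of 51 members matched. All symbols were tested in 4 comparisons, and members with at least 50 CPM in a group or a call were named.

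Members, lists and alternatives were chosen with earlier results of these data known. Alternatives were the mean of cell CPM, TMM, no filter, a filter of 50 counts, counts in at least 2 cells of the higher group, all 5 whole cells, each cell left out, and leaving out cells whose fibroblast and mesothelial markers reach 10% of the macrophage markers. Weighting the letters that start the AZD3965 cell names equally was added after seeing the data. Leaving out CTL32 alone is 1 of the single omissions. Metabolomes were not analysed here, and the results of 1 member are not reported here, although it is in the counts.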

Additional observations from a re-analysis of the deposited data

Results flagged for a closer look

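Among 57 groups of 4 to 8 cells, taken member by member, 9 had a lowest or highest cell far from the others. The scale was log2(CPM + 1) and the rule Dixon's criterion at 95%, which normally distributed values meet in about 1 of 20 groups. Groups with several cells at 0 are not of that kind, so the rate does not apply to them. Where 1 cell alone has a count, as for Ccl5, Cxcr3, Ccl2 and Cxcl12 below, the criterion is met whatever the level. Cxcl13 was lowest in the lactate-treated cell Lactic33, at 27.9 CPM. After scMeT-seq, Ccl5 was at 47.1 CPM in Lactic13, Cxcr3 at 42.3 CPM in Lactic14 and Ccrl2 at 149 CPM in Lactic16, each the highest of the 4 cells, and Cxcl2 was at 0 in Lactic14. With lactate alone in the AZD3965 table, Cxcl14 was highest in T11, at 829 CPM. With lactate and AZD3965, Cxcl14 was at 0 in W10, and Ccl2 and Cxcl12 were highest in W14, at 262 and 169.7 CPM, the cell with 19199 CPM of fibroblast markers. What lies behind these single cells was not tested.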

How the results depend on the processing

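Of the counts of members called, those called higher with lactate went from 4 to 2 without the cells that hold fibroblast and mesothelial markers, while those called lower went from 4 to 6 there and to 1 under the filter of 50 counts. Under the same filter the 6 members called higher with AZD3965 and the 2 called higher after scMeT-seq became 0, and requiring counts in 2 cells also left 0 of the latter. TMM scaling raised the whole cells' 2 higher calls to 4. Leaving out each cell in turn gave 2 to 5 higher and 4 to 7 lower calls with lactate, 4 to 7 and 2 to 3 with AZD3965, 1 to 5 and 3 to 8 after scMeT-seq, and 1 to 7 and 2 to 6 in whole cells. No share over all genes is given for these alternatives, so the changes in these counts are descriptions. Called ratios that changed sign with at least 10 counts left were those of Cxcl1 and Cxcl3 after scMeT-seq, with log2 ranges over the omissions of -2.28 to 5.70 and -4.47 to 0.027, the upper ends without Lactic6. In whole cells Cxcl5 ranged from -0.024, without CTL4, to 3.16, and Cxcr4 from -1.82 to 0.17, again without CTL4. With fewer than 10 counts left, Ccl3 and Ccl4 in the AZD3965 comparison changed sign too, at -0.87 without T10 and -0.26 without W10. So did Ccl4 after scMeT-seq, at 0.47 without Lactic6, where whole cells had no count. Ccl5 after scMeT-seq was at -0.46 without Lactic13, where the scMeT-seq cells had no count. Without Lactic14, Cxcr3 had no count in either group of that comparison. Weighting the letters T, W and F of the cell names equally, an alternative chosen after seeing the data, gave 7 higher and 2 lower calls with AZD3965, the call lost being that of Cxcl14, at -0.80. The whole-cell and scMeT-seq groups held no cell past the marker limit, so that alternative gave no value there. No paired analysis was possible because the cells are not tied to an animal, culture or day in the sources used here and the results come from no test. Depth limits the AZD3965 table most, where a sum of 0 allows up to 4.16 CPM with lactate and 5.16 CPM with AZD3965 added. Animals, cultures and the fate of reads shared by related genes are not given in the sources used here, and intervals cover counting error only.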
